A study of Homo sapiens with 8 samples.

Results

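HEXIM1, the kinase and cyclins of the positive transcription elongation factor P-TEFb (CDK9, CCNT1, CCNT2), and the other kinases and cyclins that act on RNA polymerase II or on the RNA it makes (CDK7, CDK12, CDK13, CCNK, CCNL1, CCNL2) were followed in SW480 cells after transcription had been blocked. These 10 genes were taken by symbol, with every RefSeq transcript listed for them. This gave 17 transcripts, 16 of them coding and 1 non-coding, of 22468 listed in either of the 2 tables. The table of RBMS1 knockdown cells held 16 of them among 20474 transcripts, and the table of control cells held all 17 among 21328. The 16 in both tables stand among 19334 shared transcripts. The genes and the lists used beside them were chosen with earlier results of these data known.

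SW480 is an established human colorectal adenocarcinoma line, although the series text calls it a breast cancer line. The knockdown cells stably expressed shRBMS1, an shRNA against the RNA-binding protein RBMS1, and the cells they were set against expressed a control shRNA, named shControl in the labels. Each population was sampled with no agent at 0 h and after 9 h of alpha-amanitin at 10 µg/mL, a toxin that binds RNA polymerase II, which gave 4 groups of 2 libraries. The treatment protocol names 1 shRBMS1 clone and the series text names 2, so the clone or clones behind the values cannot be told. Each value below is the authors' fold change of 1 transcript, taken as log2 of 9 h over 0 h. A value of -1 is thus a level at 9 h that is 50% of that at 0 h, relative to the rest of the library. The libraries were already combined, so no value could be set against replicate error, no test was possible, and read depth is unknown. In total RNA, fewer cells and less RNA per cell cannot be told apart. Of 6 genes typical of colon epithelium, EPCAM, KRT8, KRT18 and CDX2 were listed in both tables, while KRT20 and VIL1 were listed for control cells.

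RNA polymerase II pauses soon after it starts, and P-TEFb releases it by phosphorylating its C-terminal domain and the pausing factors NELF and DSIF. HEXIM1, bound to the small nuclear RNA 7SK, holds P-TEFb in an inactive store from which it is released when transcription is disturbed. CDK7 acts earlier, as the kinase of the initiation factor TFIIH. CDK12 and CDK13 pair with cyclin K and phosphorylate the polymerase during elongation, and the L cyclins are partners of CDK11 kinases in pre-mRNA splicing.

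For 6 of the 10 genes more than 1 isoform was listed. Stretches that tell some of these isoforms apart are described next, and their part in the values was not tested. Exon structures and sequences are those of GENCODE release 29, on GRCh38 (hg38), through its own pairing with RefSeq accessions. The 2 CCNT1 isoforms share 6809 nt, which is 97.6% of NM_001240 and 98.5% of NM_001277842. The difference within the coding sequence is exon 7 of NM_001240, which NM_001277842 leaves out. That exon lies at chr12:48695999-48696162 on the minus strand and is 164 nt long. CCNT2 has an exon 7 of the same length at chr2:134947736-134947899 on the plus strand, and all 3 of its listed isoforms hold it. Outside the coding sequence, NM_001277842 has 106 nt that NM_001240 lacks, 100 nt at the start of exon 1 and 6 nt at the 3′ end. The exons are shown because one of them is the coding difference between the member with the lowest values and its sister isoform. They are identical at 127 of 164 positions (77.4%), and capitals mark the 37 that differ.
CCNT1 exon 7: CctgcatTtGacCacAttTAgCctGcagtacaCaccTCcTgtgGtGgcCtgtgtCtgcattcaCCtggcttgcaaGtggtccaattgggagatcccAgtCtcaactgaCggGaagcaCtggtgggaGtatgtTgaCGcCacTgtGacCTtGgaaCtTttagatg
CCNT2 exon 7: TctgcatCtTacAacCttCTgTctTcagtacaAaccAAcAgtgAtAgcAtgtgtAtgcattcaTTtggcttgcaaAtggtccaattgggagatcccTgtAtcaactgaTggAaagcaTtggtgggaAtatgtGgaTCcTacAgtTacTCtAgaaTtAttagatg

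Leaving out the CCNT1 exon shifts the reading frame. The annotated coding sequence is 184 codons long in NM_001277842, against 726 codons in NM_001240, and its stop codon stands in exon 7 of 8, 58 nt before the last exon junction. The junction that only NM_001277842 makes and the pair that NM_001240 makes around its exon 7 are given as 15 nt on either side, with the downstream exon in capitals.
CCNT1 NM_001277842, exon 6 to exon 7: catggcaaccaacagAACTGACACATGAGT
CCNT1 NM_001240, exon 6 to exon 7: catggcaaccaacagCCTGCATTTGACCAC
CCNT1 NM_001240, exon 7 to exon 8: tggaacttttagatgAACTGACACATGAGT

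The isoforms of CDK12 and of CDK13 also differ by coding stretches that keep the frame, in exon 14 of 14 for CDK12 and in exon 13 of 14 for CDK13. In CDK12, the last exon of NM_016507 starts 27 nt earlier than that of NM_015083, at chr17:39530604-39530630 on the plus strand. In CDK13, exon 13 of NM_003718 starts 180 nt earlier than that of NM_031267, at chr7:40092785-40092964 on the plus strand. Both stretches are shown as coding differences between listed isoforms. They are a small part of what tells the isoforms apart. NM_016507 has 2696 nt that NM_015083 lacks, and NM_003718 has 4680 nt that NM_031267 lacks, most of it in the 3′UTR. The part of either stretch in the values was not tested.
CDK12, coding in NM_016507 alone: catgtcctcctcacattcttccaccag
CDK13, coding in NM_003718 alone: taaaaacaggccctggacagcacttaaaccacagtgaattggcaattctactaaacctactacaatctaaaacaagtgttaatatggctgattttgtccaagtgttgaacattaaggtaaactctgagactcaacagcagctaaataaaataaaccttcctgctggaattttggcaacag

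The first question was which of these mRNAs were lost after transcription was blocked. In knockdown cells 1 of 16 transcripts lay at -1 or below, the exon-skipped CCNT1, where 12.9% of all transcripts did, and none lay at 1 or above, where 8.65% of all did. In control cells 5 of 17 lay at -1 or below, where 13.8% of all transcripts did, and 1 at 1 or above, where 8.32% of all did. The 5 were CCNK, the exon-skipped CCNT1, the non-coding CCNT2, CDK12 NM_015083 and CDK13 NM_003718. The median of the members was -0.23 in knockdown cells, where that of all transcripts was -0.03, and -0.53 in control cells, where that of all transcripts was -0.04. Set relative to cytosolic ribosomal protein mRNAs, the median of all transcripts moved to -0.42 in knockdown cells and -0.45 in control cells, and 7 of 16 members in knockdown cells, where 22.8% of all transcripts did, and 8 of 17 in control cells, where 24.8% of all did, then lay at -1 or below. Of the 6 members above 0 in each table as deposited, 2 in knockdown cells and 3 in control cells stayed above 0 on that scale.

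**Figure D1:**
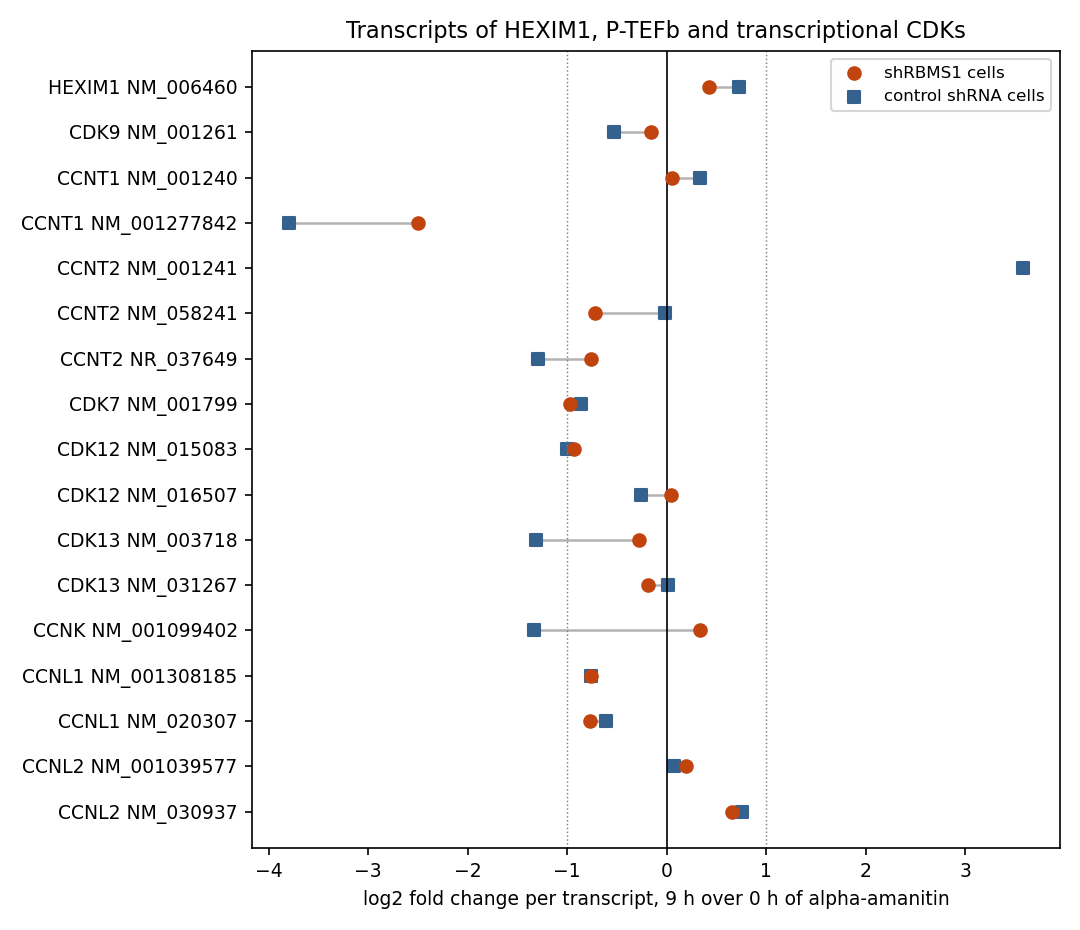
Log2 fold change of 9 h over 0 h of alpha-amanitin (x axis) for each of the 17 member transcripts (rows), circles for shRBMS1 cells and squares for control shRNA cells, each point the authors' single value. The exon-skipped CCNT1 isoform is the lowest in both populations, at -2.50 and -3.80, and the CCNK points are on opposite sides of 0, at 0.33 in shRBMS1 cells and -1.33 in control cells.

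HEXIM1 (chromosome 17, 45148502 to 45152101), a single-exon gene with 1 listed transcript (NM_006460), was among the members above 0. It was at 0.42 in knockdown cells and 0.72 in control cells in the authors' deposited tables, or 134% and 165% of the level at 0 h. These values stood at the percentiles 78.2 and 87.8 of all transcripts of their tables. Relative to ribosomal protein mRNAs they were 0.04 in knockdown cells and 0.31 in control cells, so the first is close to the ribosomal protein median. The RNA that HEXIM1 needs to hold P-TEFb, RN7SK, is made by RNA polymerase III, and its only listed transcript was at 0.58 in knockdown cells and 0.66 in control cells in the authors' deposited tables. Exons of another gene on the opposite strand cover 14.4% of the HEXIM1 transcript, and whether the authors counted by strand is not given in the sources used here.

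Among genes with 1 listed coding transcript, NES, MYL5, BTBD16 and RSRP1 were among those with values nearest to those of HEXIM1, at Euclidean distances of 0.01 to 0.05 over the 2 cell populations. NES, which encodes the intermediate filament protein nestin, was at 0.42 in knockdown cells and 0.72 in control cells in the authors' deposited tables. There were 18 such genes of 6269 within a distance of 0.1, and nearness rests on 2 values alone.

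CDK9 (chromosome 9, 127786049 to 127790787), the kinase of P-TEFb, had 1 listed transcript (NM_001261). It was at -0.16 in knockdown cells and -0.53 in control cells in the authors' deposited tables, or 89.6% and 69.1% of the level at 0 h. Its percentiles were 43.1 in knockdown cells, near the middle of that table, and 26.8 in control cells. Relative to ribosomal protein mRNAs it was at -0.55 in knockdown cells and -0.95 in control cells. As deposited, the kinase mRNA was thus below 0 in both populations, on the other side of 0 from the mRNA of its inhibitor HEXIM1.

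CCNT1 (chromosome 12), which encodes the main cyclin of P-TEFb, had isoforms far apart. NM_001240, with all 9 exons, was at 0.05 in knockdown cells and 0.33 in control cells in the authors' deposited tables, and these became -0.33 and -0.08 relative to ribosomal protein mRNAs. NM_001277842, without the 164 nt exon shown above, was at -2.50 in knockdown cells and -3.80 in control cells in the authors' deposited tables, or 17.7% and 7.2% of the level at 0 h. Its percentiles among all transcripts were 2.5 and 1.5. The gap between the isoforms was 2.55 in knockdown cells and 4.13 in control cells. With 97.6% of the longer isoform shared, few reads can tell them apart, and the number of such reads is not known.

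CCNT2 (chromosome 2), the second cyclin T, had 2 shared transcripts and 1 listed for control cells alone. NM_058241 was at -0.72 in knockdown cells and -0.02 in control cells in the authors' deposited tables. The non-coding NR_037649, paired with a GENCODE transcript typed as nonsense-mediated decay, was at -0.76 in knockdown cells and -1.29 in control cells in the authors' deposited tables. In the authors' deposited table of control cells, NM_001241 was at 3.58. All 4491 nt of that transcript lie in exons of NM_058241, from which a splice junction and its end tell it apart. NR_037649 makes that junction too.

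CDK7 (chromosome 5, NM_001799), the kinase of TFIIH, was at -0.98 in knockdown cells and -0.86 in control cells in the authors' deposited tables, or 50.8% and 54.9% of the level at 0 h. It was the lowest of the members with 1 listed transcript in knockdown cells and, after CCNK, the second lowest of these in control cells. Its percentiles were 13.4 in knockdown cells and 16.5 in control cells, low in both tables. The 4 transcripts of its partners in the kinase complex of TFIIH, cyclin H and the assembly factor MNAT1, had medians of 0.18 in knockdown cells and 0.14 in control cells. In the authors' deposited tables CCNH was at 0.04 in knockdown cells and 0.12 in control cells for NM_001239, and at 0.33 and 1.25 for NM_001199189. MNAT1 was at 0.32 in knockdown cells and 0.17 in control cells for NM_002431, and at -0.62 and 0.10 for NM_001177963, as listed in the authors' deposited tables.

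CDK12 (chromosome 17) and CDK13 (chromosome 7) had 2 listed isoforms each. In the authors' deposited tables CDK12 NM_015083 was at -0.93 in knockdown cells and -1.01 in control cells. NM_016507, with the 27 nt stretch and a longer 3′UTR of 3830 nt against 1161 nt, was at 0.05 in knockdown cells and -0.26 in control cells in the authors' deposited tables, and at -0.34 and -0.67 relative to ribosomal protein mRNAs. The longer isoform of CDK12 was therefore the higher one in both populations. For CDK13, NM_003718, with the 180 nt stretch and a 3′UTR of 4600 nt, was at -0.28 in knockdown cells and -1.31 in control cells in the authors' deposited tables. NM_031267, with a 3′UTR of 575 nt, was at -0.19 in knockdown cells and 0.01 in control cells in the authors' deposited tables. Here the longer isoform was the lower one, by 0.08 in knockdown cells and 1.32 in control cells.

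CCNK (chromosome 14, 99481409 to 99512440), the cyclin of CDK12 and CDK13, had 1 listed transcript (NM_001099402). It was at 0.33 in knockdown cells and -1.33 in control cells in the authors' deposited tables, or 126% and 39.7% of the level at 0 h. Its percentiles were 73.0 in knockdown cells and 8.7 in control cells, so it stood in the upper part of the knockdown table and near the lower end of the control table. Relative to ribosomal protein mRNAs it was at -0.06 in knockdown cells and -1.74 in control cells. Of the CCNK transcript, 84.8% (2990 nt) lies in exons of CCDC85C on the opposite strand. CCDC85C (NM_001144995) was at -0.44 in knockdown cells and -0.19 in control cells in the authors' deposited tables. Its part in the CCNK values was not tested.

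The L cyclins differed from each other and little between the populations. CCNL1 (chromosome 3) was at -0.77 in knockdown cells and -0.61 in control cells for NM_020307 in the authors' deposited tables, and at -0.76 in both for NM_001308185. These isoforms end in different last exons and share 1351 nt, which is 56.6% of NM_020307. In the authors' deposited tables CCNL2 (chromosome 1) was at 0.66 in knockdown cells and 0.76 in control cells for NM_030937, and at 0.20 and 0.07 for NM_001039577. NM_030937 was the highest member in knockdown cells and stayed above 0 relative to ribosomal protein mRNAs, at 0.27 in knockdown cells and 0.34 in control cells, whereas NM_001039577 moved to -0.19 and -0.34. As deposited, the CCNL1 values were thus below 0 and the CCNL2 values above 0 in every case.

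Over the 6 genes with 2 shared isoforms, the gap between isoforms reached 1 for 1 gene in knockdown cells, where 37.9% of 2879 genes with 2 shared isoforms had such a gap, and for 3 in control cells, where 35.8% had. The isoforms stood in the same order in both populations for 5 of the 6, CCNL1 being the exception, where 60.6% of those genes did. The CCNT1 gaps stood at the percentiles 89.4 in knockdown cells and 95.5 in control cells of these genes, and the gaps of the other 5 members at or below 61.3 in knockdown cells and 74.7 in control cells.

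**Figure D2:**
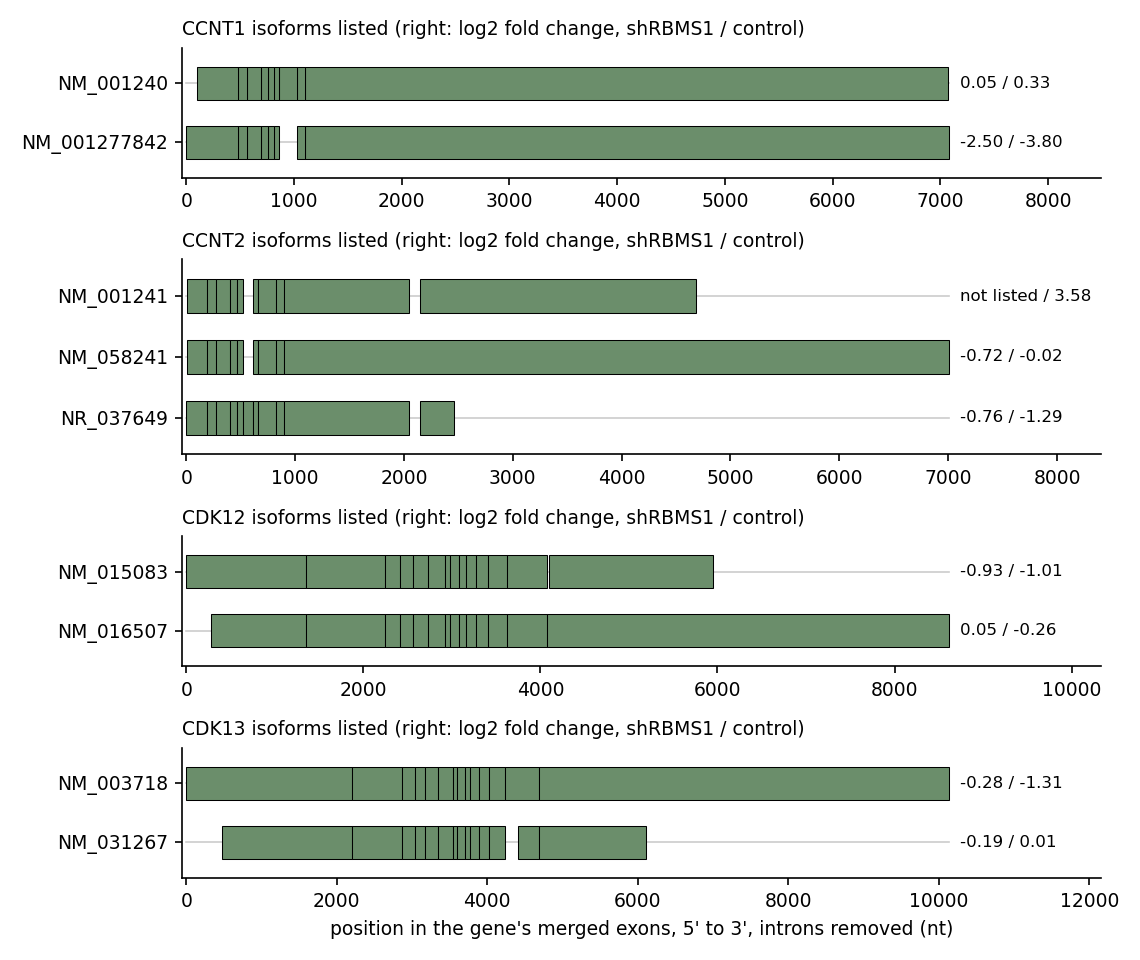
Exons (boxes) of the listed isoforms of CCNT1, CCNT2, CDK12 and CDK13, drawn to scale along the merged exons of each gene with introns removed (x axis, nt); vertical lines are exon borders, and the log2 fold change of each isoform stands at its right, shRBMS1 cells first and control cells second. The CCNT1 isoform without the 164 nt exon is at -2.50 and -3.80, against 0.05 and 0.33 for the isoform that holds it.

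The series compared mRNA stability between RBMS1 knockdown and control cells. The difference was taken as the knockdown value minus the control value for the 16 shared transcripts and centred by subtracting the median difference of all shared transcripts, -0.02. Of the 16 member transcripts, 3 had a centred difference of at least 1, where 8.98% of all transcripts had one, and none had one of -1 or less, where 8.65% of all did. The median over the members was 0.05, with 9 above and 7 below 0, beside a median of 0 for all transcripts by construction. For 11 of the 16 the centred difference was under 0.5 in size, which held for 12846 of 19334 transcripts.

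The 3 were CCNK at 1.68, the exon-skipped CCNT1 isoform at 1.32 and CDK13 NM_003718 at 1.05. In ratios, their fold change of 9 h over 0 h in knockdown cells was 3.21, 2.49 and 2.07 times that in control cells after centring. These 3 stood at the percentiles 95.5, 93.5 and 91.5 of all differences. All 3 were at -1 or below in control cells, but the control value is itself part of the difference that picked them. How often this holds among all transcripts with such a difference was not computed. Values of opposite sign in the 2 populations were found for 3 of 16 members, CCNK, CDK12 NM_016507 and CDK13 NM_031267, where 25.6% of all transcripts had them, and relative to ribosomal protein mRNAs all 3 were below 0 in both populations. Of the 3 with a centred difference of at least 1, CCNK has no second listed isoform to set beside it. The other isoforms of CCNT1 and CDK13 had small differences of the other sign, -0.26 for CCNT1 NM_001240 and -0.19 for CDK13 NM_031267.

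The other members differed less. CDK9 had a centred difference of 0.39, HEXIM1 of -0.28 and CDK7 of -0.09. The CCNT2 isoforms went opposite ways, to -0.68 for NM_058241 and 0.55 for NR_037649. CDK12 was at 0.32 for NM_016507 and 0.09 for NM_015083. The 4 transcripts of the L cyclins ran from -0.14 to 0.14. Of the 6 genes with 2 shared isoforms, 5 had centred differences of opposite sign, CDK12 being the exception, where 65.8% of 2879 such genes in the tables did. As the mean over shared isoforms, CCNT1 came to 0.53, CDK13 to 0.43 and CDK12 to 0.21. CCNL2 came to 0.03, CCNL1 to -0.06 and CCNT2 to -0.07. CCNK alone was past 1 per gene, but with 1 shared transcript its value could not change on that measure. The share of all genes past 1 on that measure was not computed.

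**Figure D3:**
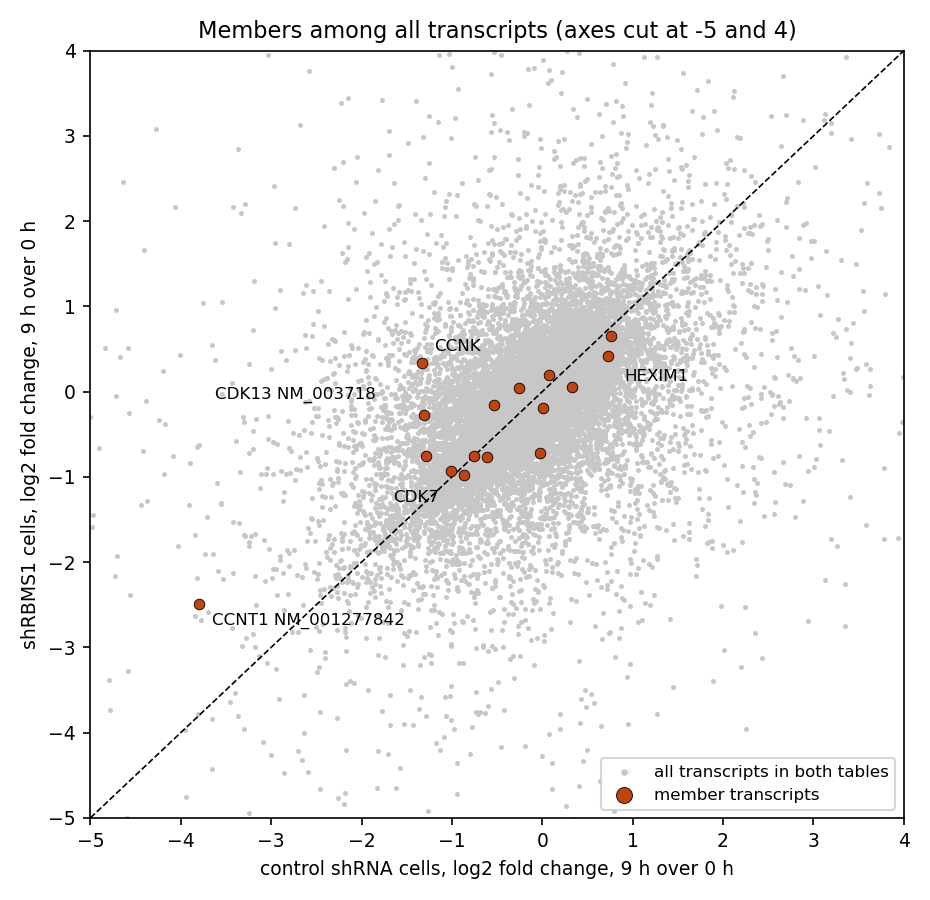
Log2 fold change of 9 h over 0 h in shRBMS1 cells (y axis) against control shRNA cells (x axis) for all transcripts in both tables (grey) and the 16 shared member transcripts (coloured), with equality as the dashed line and both axes limited to -5 and 4. CCNK, CDK13 NM_003718 and the CCNT1 isoform NM_001277842 lie above the line, with centred differences of 1.68, 1.05 and 1.32.

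A list of 46 other genes of the elongation pathway all had listed transcripts, 76 in either table and 68 in both. In knockdown cells 12 of 69 of these transcripts were at -1 or below (12.9% of all transcripts) and 3 at 1 or above (8.65% of all). In control cells 11 of 75 were at -1 or below (13.8% of all) and 5 at 1 or above (8.32% of all). Their medians were -0.26 in knockdown cells and -0.23 in control cells. The centred difference was 1 or more for 3 of 68 (8.98% of all) and -1 or less for 7 of 68 (8.65% of all), with a median of 0.06, close to that of the members.

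The 7SK particle outside HEXIM1 (HEXIM2, LARP7, MEPCE and RN7SK) had 8 of 10 transcripts below 0 in knockdown cells, where 52.1% of all transcripts were, and 10 of 12 in control cells, where 52.4% of all were. HEXIM2, the paralog of HEXIM1, was at -0.80 in knockdown cells and -1.69 in control cells for NM_001303440 and at -1.87 and -0.12 for NM_001303441 in the authors' deposited tables. The order of these 2 isoforms was thus not the same in the 2 populations. Another HEXIM2 isoform, NM_001303438, was listed for control cells alone, at 2.17 in the authors' deposited table. The RNA-binding protein LARP7, which protects 7SK, had 3 transcripts in both tables. Of these, NM_001267039 was at -1.95 in knockdown cells and -0.69 in control cells, NM_015454 at -0.36 and -0.11, and NM_016648 at -0.65 and -0.66 (the authors' deposited tables). For NM_001267039 the centred difference was -1.23. None of the 10 shared transcripts of the super elongation complex, which carries P-TEFb to paused polymerase, had a centred difference of 1 or more in size, where 17.6% of all transcripts did. The same held for the 7 shared transcripts of the PAF1 complex and SUPT6H, which travel with the elongating polymerase, and for the 7 of the Mediator kinase module. Such a difference was found for 2 of 10 transcripts of the 7SK particle, 2 of 10 of CTD phosphatases, 3 of 7 of BET proteins, 1 of 9 of NELF and DSIF, 2 of 4 of other CDC2-related kinases and 0 of 4 of the partners of CDK7.

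Among the transcripts with the largest and smallest differences and the highest and lowest means were those of BRD2, CDK11B, SUPT5H and the phosphatase gene CTDSPL. In the authors' deposited tables BRD2, which encodes a bromodomain protein that binds acetylated histones, held both the second lowest mean, with NM_005104 at -2.13 in knockdown cells and -3.42 in control cells, and the highest, with NM_001199455 at 1.96 and 1.10. BRD2 NM_001291986 was at -2.41 in knockdown cells and -0.75 in control cells in the authors' deposited tables.

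CDK11B, a kinase partner of the L cyclins, had 2 shared isoforms that swapped places. In the authors' deposited tables NM_033487 was at 1.03 in knockdown cells and -1.19 in control cells, and NM_033490 at -0.65 and 2.24. Their centred differences were 2.24 and -2.87. Another CDK11B isoform, NM_033489, was listed for control cells alone, at 2.90 in the authors' deposited table. CDK11A is nearly identical in sequence to CDK11B, so the split of reads between them is uncertain. CTDSPL, which encodes a small phosphatase of the polymerase C-terminal domain, was at -8.77 in knockdown cells and -0.60 in control cells for NM_001008392 in the authors' deposited tables. Its other isoform, NM_005808, was at -1.67 in knockdown cells and -0.81 in control cells in the authors' deposited tables. SUPT5H, a subunit of DSIF, was at 1.00 in knockdown cells and 0.75 in control cells for NM_003169 in the authors' deposited tables. Its other isoforms were lower in both populations. In the authors' deposited tables NM_001111020 was at -0.58 in knockdown cells and 0.64 in control cells, and NM_001130825 at -0.04 and -0.59. The centred difference of NM_001111020 was -1.20.

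**Figure D4:**
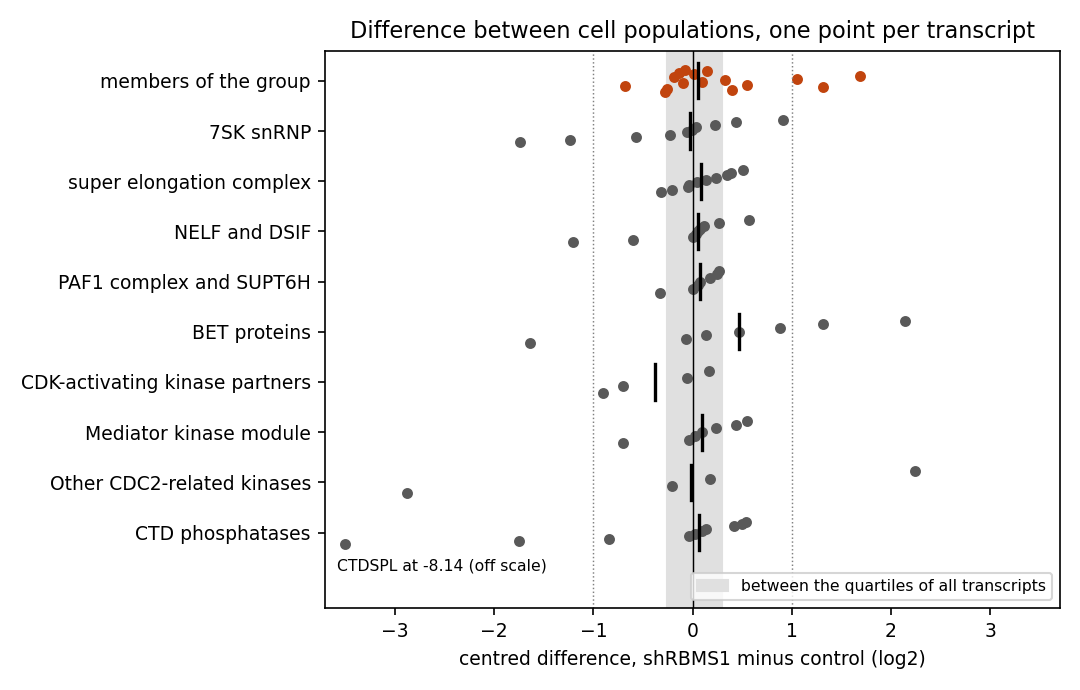
Centred difference, shRBMS1 minus control, on the log2 scale (x axis) for each shared transcript of the members (top row) and of 9 other groups of the elongation pathway, with the median of each group as a black bar and the quartiles of all transcripts, -0.26 and 0.30, as the edges of the grey band. The 3 members past 1 are CCNK, CCNT1 NM_001277842 and CDK13 NM_003718, and 1 CTDSPL transcript at -8.14 is drawn at the left edge.

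Elements rich in A and U in 3′UTRs are known to bear on mRNA decay. The DNA letters ATTTA, the core of the AU-rich element, and ATATA, part of a motif described for RBMS1 in vitro, were counted on the transcript strand with overlaps allowed. At least 1 ATTTA stood in the 3′UTR of 13 of 16 coding member transcripts, beside 64.0% of 18707 coding transcripts, and at least 1 ATATA in 10 of 16, beside 52.4%. These shares are not matched for length, so the counts cannot be read as an excess or a lack. The median 3′UTR of all was 816 nt. Member 3′UTRs ran from 45 nt, where 6.87% of similar length hold ATTTA, to 6037 nt, where 99.5% do. HEXIM1 held 7 ATTTA and 4 ATATA in 1831 nt, and 88.9% and 76.1% of 3′UTRs within 20% of that length hold at least 1. CCNK held 3 ATTTA and 2 ATATA in 1658 nt, where 87.5% and 73.8% of 3′UTRs of similar length hold at least 1. The long CDK12 isoform NM_016507 held the most ATATA of the members, 12 in 3830 nt. Neither CCNL2 isoform held either pentamer, in 736 nt and 494 nt, and nor did the 45 nt 3′UTR of CCNL1 NM_001308185. CDK7 held 1 ATTTA in 295 nt, a length at which 38.2% of 3′UTRs hold one. ATTTA per kb stood at the percentile 82.5 for HEXIM1 and 78.1 for CDK7, the latter from that 1 pentamer. Whether either pentamer goes with the values was not tested.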

How the data were processed

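Total RNA of SW480 cells was depleted of ribosomal RNA and made into ScriptSeq libraries, per the labels' protocols. Per the submitters' processing notes, the tools were STAR 2.5, Cufflinks and Cuffdiff and the build hg38, with no role or order stated. The authors deposited 2 tables of 1 log fold change per RefSeq transcript, per the file headers, with the libraries combined and no counts, p-values or columns per library. The log2 base was taken from Cuffdiff's usual output, and the direction, 9 h over 0 h, from values below 0 of MYC, FOS and JUN in both deposited tables. The sources used here do not give normalisation, filters or depth.

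Accessions were paired with symbols by the RefSeq gene table (GRCh38.p14) for 22129 of 22468 transcripts and by GENCODE release 29 for 208, and 131 stayed without one. The computed values were medians, differences and counts past 1 in size (2-fold), without tests, computed with Python 3.11.15, pandas 2.3.3 and numpy 2.4.6 and checked on simulated data. 3′UTRs of at least 20 nt came from GENCODE. Members and lists were chosen with earlier results of these data known. All member transcripts are named. Other pathway transcripts are named for the 2 largest and 2 smallest centred differences and the 3 lowest and 3 highest means of both tables. HEXIM2, LARP7, CCNH, MNAT1, RN7SK and further isoforms were added after their values were seen. Some transcripts that the rule picks are not reported here. Protein sequences were not used here, and with libraries combined none could be left out. Alternatives were another scale, coding accessions, 1 value per gene, a threshold of 0.5 and leaving out values beyond 5 in size.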

Additional observations from a re-analysis of the deposited data

Results flagged for a closer look

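CCNK (NM_001099402) is given here because its values had opposite signs in the 2 cell populations and its centred difference was at least 1 in size. It was at 0.33 in shRBMS1 cells and -1.33 in control cells in the authors' deposited tables. Its centred difference was 1.68. Relative to ribosomal protein mRNAs both values were below 0, at -0.06 in shRBMS1 cells and -1.74 in control cells. Opposite signs as deposited together with a centred difference of that size were found for 10.3% of all shared transcripts. CDK12 NM_016507 and CDK13 NM_031267 also had opposite signs, with smaller centred differences of 0.32 and -0.19. The difference was not tested, since each population has 1 combined value.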

How the results depend on the processing

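No paired analysis was possible because the deposited tables hold 1 combined value per transcript and no columns per library; leaving out a library was not possible for the same reason. Relative to ribosomal protein mRNAs, 7 member transcripts in knockdown cells (22.8% of all transcripts) and 8 in control cells (24.8% of all) lay at -1 or below. The medians of the members were then -0.62 and -0.95. As deposited, 7 members lay at -0.5 or below in knockdown cells, where 26.7% of all transcripts did, and 9 in control cells, where 27.9% did. At that threshold 1 member transcript had a centred difference of -0.5 or less, which 16.1% of all had. With 1 value per gene, 2 genes lay at -1 or below in control cells, and the medians were -0.34 in knockdown cells and -0.64 in control cells. On that basis 1 gene, CCNK, had a centred difference of 1 or more, by the mean and by the least changing isoform. With 1 listed transcript, CCNK gave both measures the same value before centring. The shares of all genes past these limits were not computed, so the counts per gene have nothing to be set against. Coding accessions alone gave a control median of -0.40. The other 25 alternatives for these counts and medians kept the count within 1.5 times or the median within 0.1, but the median centred difference of 0.05 turned to -0.04 with the least changing isoform per gene. No centring, or centring on ribosomal protein mRNAs, moved no member transcript's difference by 0.1, and without centring CCNL1 NM_001308185 (0.02) came to just below 0. Isoforms that share most of their sequence rest on few reads of their own, and the unknown depth sets how far their values can be read.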
